A study of Homo sapiens with 4 samples.

Results

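The oxidation of branched-chain amino acids and of fatty acids was examined over 40 genes chosen by name: 21 that degrade leucine, isoleucine and valine, 12 of fatty acid oxidation and 7 of side reactions that use aldehydes, ketone bodies or the same intermediates. They were picked by their place in the pathways, with earlier results of these data known. All 40 genes had a probe, so that they made up 60 of the 31741 probes and 40 of the 18365 genes that a probe named alone. DLD-1 is a human colorectal cancer cell line. The DLD-1-miR-21 line carries a plasmid that expresses human miR-21. The DLD-1-vector line, called DLD-1-miR-Vec in the labels, carries the pCMV-MIR vector alone, and PolyJet was the transfection reagent for both. Both lines were selected and grown in G418, and clones picked by their green fluorescent protein reporter were pooled, so each line is a mixture of transfected clones and not the untreated parent. Total RNA of each line was hybridized to 2 single-color Human OneArray Plus arrays, 4 in all. Nothing in the labels or methods tells if both arrays of a line had their own culture, so p-values measure only the spread between arrays, which may be technical.

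Leucine, isoleucine and valine first lose their amino group to a transaminase, and the mitochondrial branched-chain ketoacid dehydrogenase complex (BCKDH) then commits the carbon skeletons to oxidation. Each skeleton passes through an acyl-CoA dehydrogenase and its own set of hydratases, carboxylases and dehydrogenases, and ends as acetyl-CoA, acetoacetate or propionyl-CoA. Fatty acids enter mitochondria as carnitine esters and are shortened by a repeated cycle of dehydrogenation, hydration, a further dehydrogenation and thiolysis, a chemistry close to that of the branched chains. In colon epithelium these pathways supply fuel, and fatty acids of bacterial origin are a well-known substrate there.

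The mature miR-21 is shown because it is what the plasmid of the DLD-1-miR-21 line adds. It is encoded at chr17:59841273-59841294 on the plus strand (GRCh38.p14, RefSeq). The seed, bases 2 to 8, is in capitals.
hsa-miR-21-5p: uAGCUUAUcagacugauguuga
The 250 bases before the start of CPT1A and ACADM, both called higher in the miR-21 line, and of HIBCH and ECHS1, both called lower there, are shown because these genes hold some of the largest differences described below. The windows are RefSeq sequence of GRCh38.p14, each read 5′ to 3′ on the strand of its gene, at chr11:68844278-68844527 (minus), chr1:75724459-75724708 (plus), chr2:190319827-190320076 (minus) and chr10:133373355-133373604 (minus) in that order. Capitals mark the GC box GGGCGG on either strand.
CPT1A: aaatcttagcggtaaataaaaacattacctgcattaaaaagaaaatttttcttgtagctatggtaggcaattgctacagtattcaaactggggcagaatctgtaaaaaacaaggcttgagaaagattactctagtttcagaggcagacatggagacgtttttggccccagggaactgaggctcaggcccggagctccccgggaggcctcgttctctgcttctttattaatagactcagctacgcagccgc
ACADM: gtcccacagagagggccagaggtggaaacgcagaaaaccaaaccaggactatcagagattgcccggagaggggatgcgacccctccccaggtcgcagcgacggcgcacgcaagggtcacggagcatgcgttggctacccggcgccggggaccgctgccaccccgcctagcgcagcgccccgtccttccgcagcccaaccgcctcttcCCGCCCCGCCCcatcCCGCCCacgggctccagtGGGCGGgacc
HIBCH: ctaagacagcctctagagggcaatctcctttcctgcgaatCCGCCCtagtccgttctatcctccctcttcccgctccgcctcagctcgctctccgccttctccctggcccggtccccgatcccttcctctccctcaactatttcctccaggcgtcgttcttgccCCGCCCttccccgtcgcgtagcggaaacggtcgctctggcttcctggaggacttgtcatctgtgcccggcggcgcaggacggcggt
ECHS1: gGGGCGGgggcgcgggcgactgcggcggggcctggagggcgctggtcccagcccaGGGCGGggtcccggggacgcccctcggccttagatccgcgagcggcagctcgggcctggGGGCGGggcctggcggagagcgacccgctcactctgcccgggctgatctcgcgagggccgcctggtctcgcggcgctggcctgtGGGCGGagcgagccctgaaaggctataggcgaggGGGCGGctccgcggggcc
The window of CPT1A held 0 GC boxes, that of ACADM 4, that of HIBCH 2 and that of ECHS1 5, overlapping matches included. Of the 40 genes, 34 had a window in the table, and 25 of these (73.5%) held the motif, against 42.6% of all 35116 windows of the same length. For each member 1 window, the first listed, was taken, and 10 members had several. The whole set counted every window, so the shares here and below are not of like units. It was found in 9 of 14 windows of genes higher in DLD-1-miR-21 cells, 7 of 9 of genes lower and 9 of 11 of genes not called. CCAAT, searched in the same way on both strands, was in 41.2% of the 34 windows and in 32% of all. The nuclear receptor motif AGGTCA was in 1 of the 34 and in 12.1% of all, and the NRF1 core GCGCATGC was in 1 of the 34 and in 2.63% of all. BCAT2, HIBADH, EHHADH, ACAA1, ALDH2 and ACAT2 had no window in the table.

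The deposited intensities of the DLD-1-miR-21 arrays were lower as a whole, with medians of 255 and 339, against 571 on both DLD-1-vector arrays. The arrays correlated at 0.99 within the DLD-1-miR-21 line, at 0.984 within the DLD-1-vector line and at 0.909 to 0.94 between lines. No labeling or hybridization batch is given, so a batch and the lines cannot be told apart. Of the colorectal epithelial markers, 8 of the 9 measured lay above the array median in DLD-1-miR-21 cells and 8 in DLD-1-vector cells, with VIL1, KRT20 and CDX1 called higher and EPCAM and KRT8 called lower. Of the markers of blood, endothelial, fibroblast and liver cells, 5 of the 11 measured lay above the median in DLD-1-miR-21 cells and 3 in DLD-1-vector cells, and CD14, VWF, LUM and APOB were called higher. Both lines were made from DLD-1 cells, so these lists are not read as a mix of cell types. The part of either list in the results was not tested. In bulk RNA fewer cells that express a gene and less RNA per cell cannot be told apart. Mature miR-21 was not analysed on these arrays. PDCD4, a known miR-21 target, had a log2 ratio of -0.08 on its brightest probe (limma adjusted p = 0.617) and of -0.65 on its second (adjusted p = 0.0225).

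In all log2 ratios below the DLD-1-vector mean is subtracted from the DLD-1-miR-21 mean, on the scale log2(intensity + 50) after quantile normalization, so that they describe a gene relative to the whole array. A probe was called at an adjusted p under 0.05 in limma, adjusted over all 31741 probes, and a gene took the values of its brightest probe over the 4 arrays. Of the 40 genes, 15 were called higher (37.5%, against 24.6% of all genes), 12 lower (30%, against 22.4% of all genes) and 13 were not called. Their median log2 ratio was 0.03, and that of all genes was 0.09. The 3 groups of reactions differed in their counts. Of the 21 branched-chain genes, 5 were higher and 9 lower (median -0.18), of the 12 fatty acid genes 5 were higher and 2 lower (median close to 0, at -0.0016), and of the 7 side reaction genes 5 were higher and 1 lower (median 0.95). These differences between the groups were not tested. ACADSB, PCCB and ABAT are counted as higher on their brightest probes, although no direction is given for these genes below.

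Both sides of this count depended on the scale. Without normalization between arrays, 2 of the 40 genes were called higher, CPT1A and ALDH2, and 26 lower, while 203 of all genes were called higher and 8910 lower. Of the 15 genes called higher after normalization, 4 kept a positive ratio on the deposited scale (BCAT1, CPT1A, ALDH2 and ABAT) and 11 had a negative one. All 12 genes called lower stayed negative, but the median of all genes was -0.71 on that scale. A negative sign there is thus no separate support for a lower call. With each array centred on its median, 9 of the 40 genes were higher and 14 lower, and of all 18365 genes 4012 were higher and 4195 lower, so that the share of members called higher lay near that of all genes. The counts also rested on single arrays, for the members as for all genes. Higher and lower members numbered 12 and 8 without DLD-1-vector replicate 1, 12 and 7 without DLD-1-vector replicate 2, 5 and 5 without DLD-1-miR-21 replicate 1, and none in either direction when DLD-1-miR-21 replicate 2 was left out, where 15 and 12 genes had an unadjusted limma p under 0.05 and the lowest adjusted p of a member was 0.0551. Over all genes the same omissions left 4103 and 3510, 2799 and 2820, 1087 and 2308, and 0 and 0 calls, with 3942 and 3958 genes at an unadjusted p under 0.05 in the last.

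**Figure D1:**
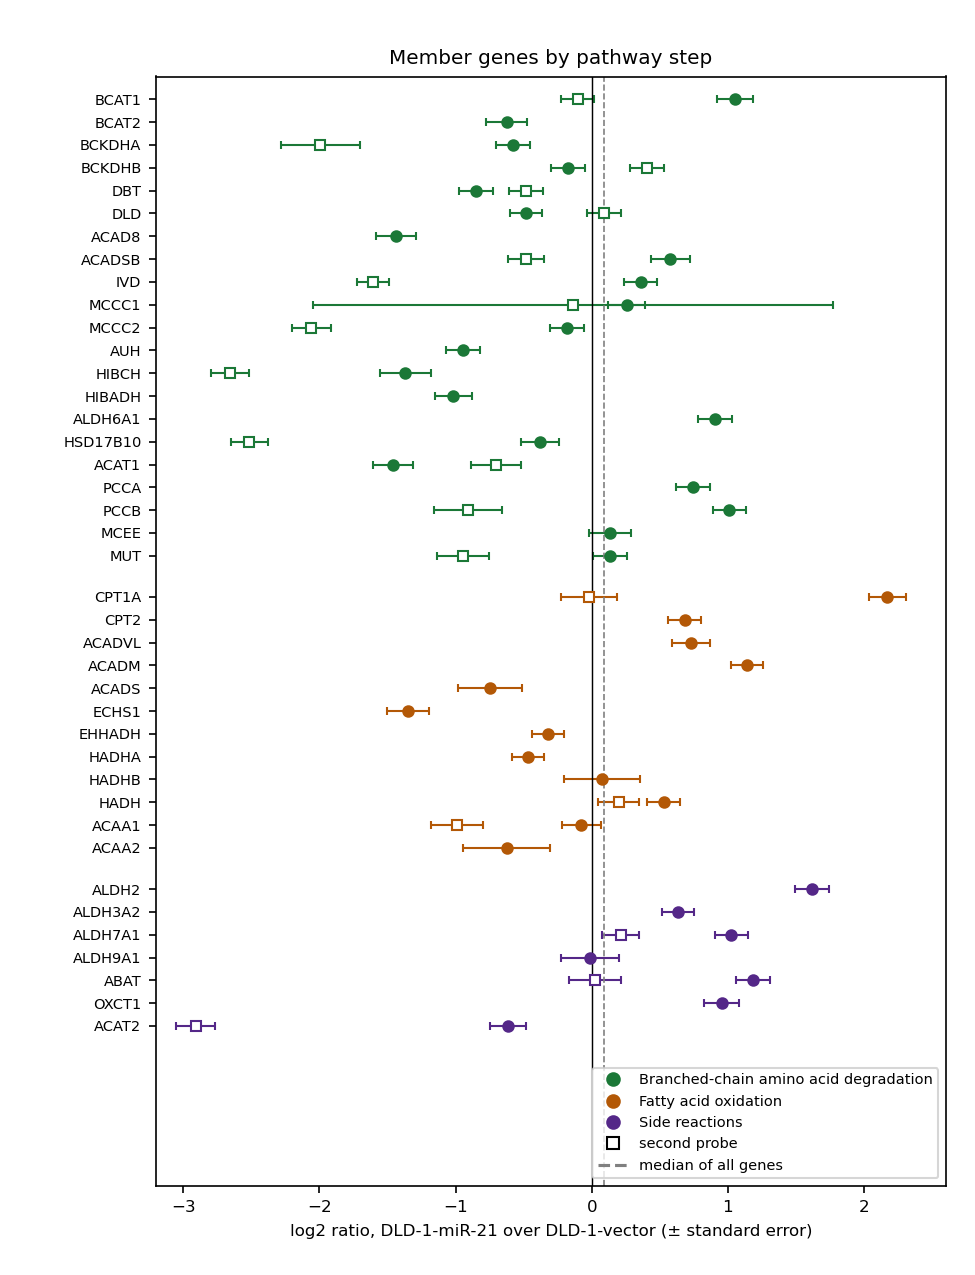
Log2 ratio of each of the 40 genes (DLD-1-miR-21 cells relative to DLD-1-vector cells) on the normalized scale, in the order of the pathway steps. Filled dots are the brightest probe, open squares the second probe where there is one, bars are standard errors (2 arrays a line) and the dashed line is the median of all genes (0.09). CPT1A lies farthest to the right, at 2.17, and the second probe of ACAT2 farthest to the left, at -2.91. On the deposited scale 11 of the 15 genes called higher had a negative ratio.

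Of the 6 genes of the first steps of branched-chain degradation, 4 were called lower in the miR-21 line and 1 higher, against 22.4% and 24.6% of all genes. BCAT1, the cytosolic transaminase, was the gene called higher, while BCAT2, the mitochondrial transaminase, and 3 of the 4 subunits of the BCKDH complex were called lower. BCAT1 had deposited intensities of 137 and 174 in DLD-1-miR-21 cells, against 91 and 76 in DLD-1-vector cells. The lines did not overlap even before normalization, but each value lay below the median of its array. On the normalized scale BCAT1 averaged 7.97 in DLD-1-miR-21 cells and 6.92 in DLD-1-vector cells (log2 ratio 1.05, standard error (SE) 0.13, adjusted p = 0.00624). Without normalization it was not called (limma adjusted p = 0.0526). Its second probe was near background, at 3 and 16 against 42 and 16, and was not called (-0.10). BCAT2 had 4120 and 3767 in DLD-1-miR-21 cells, against 13756 and 15285 in DLD-1-vector cells, and a log2 ratio of -0.63 (SE 0.15, adjusted p = 0.0306).

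In the BCKDH complex no probe was called higher, against 23% of all probes, and 5 of 8 probes were called lower, against 21.8% of all probes. BCKDHA, the E1 alpha subunit that binds the ketoacid, had a log2 ratio of -0.58 (adjusted p = 0.0222) on its brightest probe and of -1.99 (adjusted p = 0.00879) on its second, whose intensities were 226 and 198 in DLD-1-miR-21 cells, against 1534 and 2197 in DLD-1-vector cells. DBT, the E2 core that transfers the acyl group to coenzyme A, was lower on both probes, with log2 ratios of -0.85 and -0.48. Both were dim, below the array medians. They read 43 and 76 in DLD-1-miR-21 cells, against 230 and 181 in DLD-1-vector cells, and 31 and 46, against 121 and 93. With each array centred on its median, DBT was not called (-0.38, limma adjusted p = 0.152). DLD, the E3 subunit that other ketoacid dehydrogenases share, was lower on its brightest probe (-0.48) and not called on the other (0.09). BCKDHB, the E1 beta subunit, was not called, with -0.17 and 0.40 on its probes. With the replicate number as a block in the fit, BCKDHA and DLD lost their calls.

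The 3 acyl-CoA dehydrogenases of the branched chains had 5 probes, of which 3 were called lower and 1 higher, against 21.8% and 23% of all probes. Each gene had a probe called lower. ACAD8, which acts on the valine intermediate isobutyryl-CoA, was called lower. It had intensities of 114 and 132 in DLD-1-miR-21 cells, against 629 and 713 in DLD-1-vector cells, and averaged 7.67 and 9.11 on the normalized scale (log2 ratio -1.44, SE 0.15, adjusted p = 0.00434). ACADSB, which acts on the isoleucine intermediate, had probes called in opposite directions. Its brightest probe read 842 and 887 in DLD-1-miR-21 cells, against 1252 and 1377 in DLD-1-vector cells, which after normalization was a log2 ratio of 0.58 (SE 0.14, adjusted p = 0.0334) and before it one of -0.58. The second probe read 137 and 169, against 375 in both DLD-1-vector arrays, with a log2 ratio of -0.48 (SE 0.13, adjusted p = 0.0404), so no direction can be given for the gene. IVD, which acts on the leucine intermediate isovaleryl-CoA, was not called on its brightest probe (0.36, adjusted p = 0.0732), whereas its second probe fell to 472 and 608 in DLD-1-miR-21 cells, against 3793 and 3950 in DLD-1-vector cells (log2 ratio -1.61, adjusted p = 0.00253).

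In the leucine arm, AUH, the hydratase of 3-methylglutaconyl-CoA, was lower, with intensities of 835 and 1116 in DLD-1-miR-21 cells, against 4343 and 4822 in DLD-1-vector cells (log2 ratio -0.95, SE 0.13, adjusted p = 0.00711). MCCC1 and MCCC2 encode the subunits of methylcrotonyl-CoA carboxylase, and neither was called on its brightest probe, at 0.26 and -0.18. The second probe of MCCC2 was lower, at 38 and 54 in DLD-1-miR-21 cells, against 476 and 569 in DLD-1-vector cells (-2.06, adjusted p = 0.00246). That of MCCC1 disagreed between the arrays of each line, at 384 and 5, against 1209 and -6, and its log2 ratio of -0.14 had an SE of 1.91.

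The valine arm held lower values at its consecutive middle steps. HIBCH, which frees 3-hydroxyisobutyrate from coenzyme A, had 786 and 737 in DLD-1-miR-21 cells, against 4541 and 4911 in DLD-1-vector cells. On the normalized scale it averaged 10.35 and 11.72 (log2 ratio -1.37, SE 0.19, adjusted p = 0.00762), and its second probe was lower too, at 138 and 164, against 1974 and 2241 (-2.66, adjusted p = 0.00196). HIBADH, the dehydrogenase that follows, had 1225 and 1289 in DLD-1-miR-21 cells, against 6254 and 6257 in DLD-1-vector cells (normalized means 11.11 and 12.12, log2 ratio -1.02, SE 0.14, adjusted p = 0.00721). ALDH6A1, the methylmalonate semialdehyde dehydrogenase that ends the arm, was called higher instead. It read 931 and 1034 in DLD-1-miR-21 cells, against 1182 and 1189 in DLD-1-vector cells, so that its log2 ratio was 0.90 after normalization (adjusted p = 0.00791) and -0.26 before it.

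In the isoleucine arm, ACAT1, the mitochondrial thiolase that also acts on ketone bodies, had the most negative brightest probe of the 40 genes. Its intensities were 3936 and 3729 in DLD-1-miR-21 cells, against 23083 and 27385 in DLD-1-vector cells, with normalized means of 12.68 and 14.13 (log2 ratio -1.46, SE 0.15, adjusted p = 0.00413). The second probe was also lower (-0.71, adjusted p = 0.0375). HSD17B10, the dehydrogenase before it, was not called on its brightest probe (-0.38, adjusted p = 0.0874), but its second probe read 3334 and 3483 in DLD-1-miR-21 cells, against 40908 and 51297 in DLD-1-vector cells (-2.51, adjusted p = 0.002).

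The steps by which propionyl-CoA, the common end of valine and isoleucine, becomes succinyl-CoA held no gene called lower on its brightest probe. PCCA and PCCB encode the subunits of propionyl-CoA carboxylase. PCCA read 118019 and 103512 in DLD-1-miR-21 cells, against 117275 and 126748 in DLD-1-vector cells. The lines overlapped on the deposited scale, and the log2 ratio was 0.74 after normalization (adjusted p = 0.0125) and -0.14 before it. PCCB read 21549 and 21216 in DLD-1-miR-21 cells, against 23124 and 23964 in DLD-1-vector cells, and averaged 15.05 and 14.03 after normalization (log2 ratio 1.01, SE 0.12, adjusted p = 0.00571; -0.14 without normalization). The second PCCB probe was called in the opposite direction, at 1413 and 2599, against 8034 and 9743 (log2 ratio -0.91, SE 0.25, adjusted p = 0.0433), so no direction can be given for the gene. MCEE, the epimerase, and MUT (current symbol MMUT), the mutase that needs vitamin B12, were not called, both at 0.13, while the second MUT probe was lower (-0.95, adjusted p = 0.0199).

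**Figure D2:**
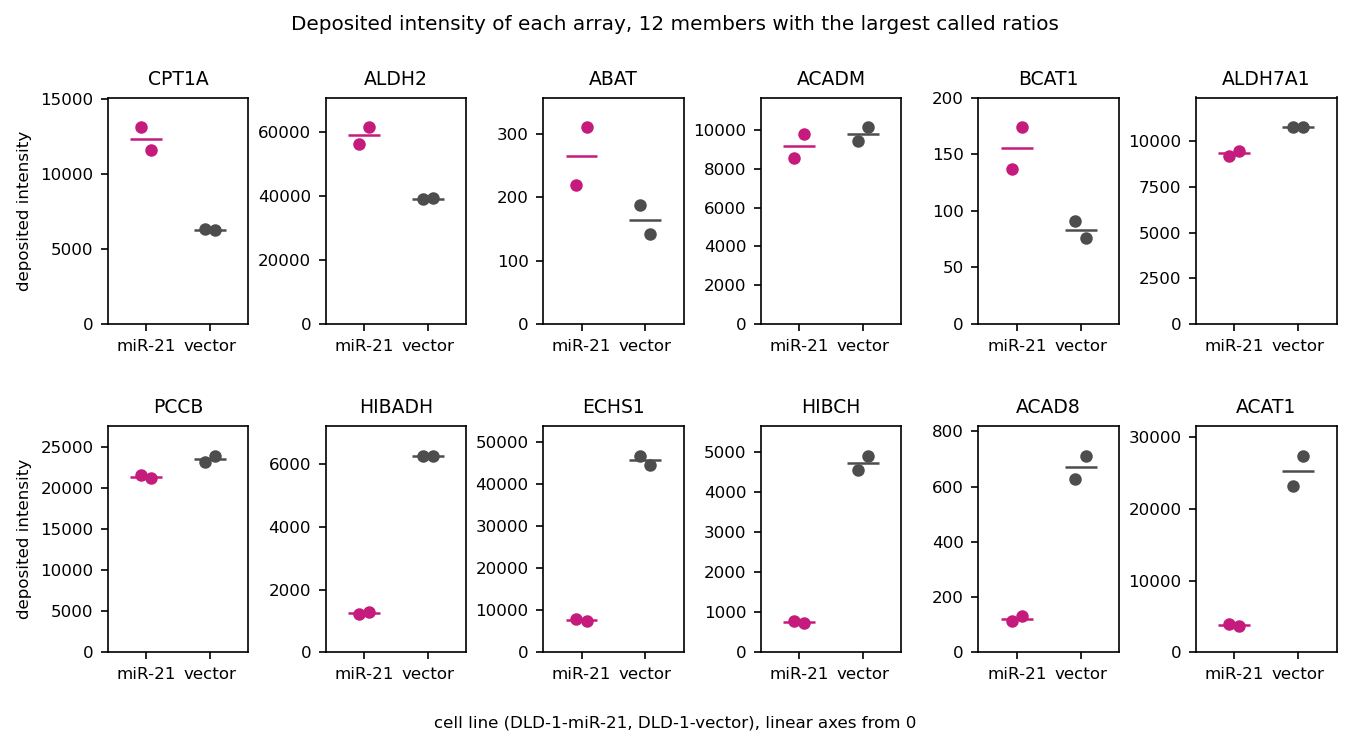
Deposited intensity, on linear axes from 0, of 12 genes on each array, with DLD-1-miR-21 left and DLD-1-vector right. Each dot is an array and each short line the mean of 2. On the brightest probes, which are shown, CPT1A, ALDH2, BCAT1 and ABAT are higher in DLD-1-miR-21 cells before any normalization, and ACAT1, ECHS1 and HIBCH are lower.

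Of the fatty acid genes, both carnitine transferases of the shuttle, CPT1A and CPT2, were called higher. SLC25A20, the carrier that completes the shuttle and is not among the 40 genes, was called lower. It read 536 and 629 in DLD-1-miR-21 cells, against 2340 and 2305 in DLD-1-vector cells (log2 ratio -0.78, adjusted p = 0.0115). CPT1A, the outer membrane transferase that limits the entry of long-chain fatty acids, had the largest ratio of the 40 genes. It read 13153 and 11598 in DLD-1-miR-21 cells, against 6314 and 6304 in DLD-1-vector cells. The difference was thus present on the deposited scale (0.96), and after normalization CPT1A averaged 14.31 and 12.14, a log2 ratio of 2.17 or 4.51-fold (SE 0.14, adjusted p = 0.00224). Its second probe did not show it, at 160 and 241 in DLD-1-miR-21 cells, against 434 and 263 in DLD-1-vector cells (-0.02, adjusted p = 0.954). CPT2, the inner membrane transferase, had a log2 ratio of 0.68 (adjusted p = 0.0133) after normalization and of -0.55 without it.

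Of the dehydrogenases that open the cycle, those for very long and medium chains were called higher and that for short chains was not called. ACADM, the medium-chain enzyme, read 8573 and 9819 in DLD-1-miR-21 cells, against 9459 and 10160 in DLD-1-vector cells. The lines overlapped there, and the normalized means were 13.91 and 12.77 (log2 ratio 1.14, SE 0.12, adjusted p = 0.00442; -0.10 without normalization). ACADVL, the very long-chain enzyme, had 0.73 after normalization (adjusted p = 0.0164) and -0.41 before it. ACADS, the short-chain enzyme, had -0.75 (SE 0.24, adjusted p = 0.0606), with 543 and 497 in DLD-1-miR-21 cells, against 1712 and 2323 in DLD-1-vector cells.

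Of the 5 genes of the hydration and second dehydrogenation, 1 was called higher (20%, against 24.6% of all genes) and 2 lower (40%, against 22.4% of all genes). ECHS1, the short-chain hydratase that serves fatty acids and the valine and isoleucine arms alike, had 7986 and 7576 in DLD-1-miR-21 cells, against 46824 and 44593 in DLD-1-vector cells. It averaged 13.68 and 15.03 after normalization (log2 ratio -1.35, SE 0.15, adjusted p = 0.00512), and counting it with the branched-chain genes instead would leave 1 fatty acid gene lower. That gene was HADHA, the alpha subunit of the trifunctional protein, at -0.47 (adjusted p = 0.0339), whereas the beta subunit HADHB was not called, at 0.07 with 4177 and 2788 against 6891 and 8812. HADH, the dehydrogenase for shorter chains, was called higher on its brightest probe (0.53, adjusted p = 0.0261; -0.69 without normalization) and not on the second (0.20). EHHADH, the peroxisomal bifunctional enzyme, was not called (-0.32). Neither thiolase was called, the peroxisomal ACAA1 at -0.08 and the mitochondrial ACAA2 at -0.62, but the second ACAA1 probe was lower (-0.99, adjusted p = 0.0172).

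Among the side reactions, 3 of 4 aldehyde dehydrogenases were called higher (75%, against 24.6% of all genes). ALDH2, the mitochondrial enzyme that clears acetaldehyde, read 56317 and 61556 in DLD-1-miR-21 cells, against 39011 and 39312 in DLD-1-vector cells. It was higher on either scale, with 0.59 before normalization and normalized means of 16.41 and 14.80 after it, a 3.06-fold difference (SE of the log2 ratio 0.12, adjusted p = 0.00269). ALDH7A1, which acts in lysine breakdown, read 9213 and 9473, against 10753 and 10771 in DLD-1-vector cells (normalized means 13.93 and 12.91, log2 ratio 1.03, SE 0.12, adjusted p = 0.00594; -0.20 without normalization), and its second probe was not called (0.21). ALDH3A2, which oxidizes fatty aldehydes, had 0.63 (adjusted p = 0.0163; -0.60 without normalization), and ALDH9A1 was not called (-0.01).

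ABAT, the mitochondrial transaminase of GABA, had 219 and 311 in DLD-1-miR-21 cells, against 188 and 142 in DLD-1-vector cells. It did not overlap between lines on the deposited scale, averaged 8.75 and 7.56 after normalization (log2 ratio 1.18, SE 0.12, adjusted p = 0.00449). This call rested on the choice of probe: the other ABAT probe was the brighter of the pair in DLD-1-vector cells alone, with 155 and 171 in DLD-1-miR-21 cells, against 306 and 205 in DLD-1-vector cells, and it had a log2 ratio of 0.02 (adjusted p = 0.937). No direction is therefore given for ABAT. With probes chosen by their level in DLD-1-vector cells 14 members were higher and 12 lower, against 4322 and 4303 of all 18365 genes. OXCT1, which activates ketone bodies for oxidation, was higher after normalization (0.95, adjusted p = 0.00765) and negative before it (-0.29). ACAT2, the cytosolic thiolase that feeds sterol synthesis, was the lower member. Its brightest probe had -0.61 (adjusted p = 0.0241), and its second read 1130 and 1145 in DLD-1-miR-21 cells, against 19750 and 22185 in DLD-1-vector cells (-2.91, adjusted p = 0.00196).

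The calls were also counted over every probe of the 40 genes. Of all 60 probes, 15 were called higher (25%, against 23% of all probes) and 24 lower (40%, against 21.8% of all probes). Of the 20 second probes, 0 were called higher and 12 lower by limma, with 1 and 12 at an unadjusted p under 0.05, whereas among all 5441 genes with a second probe 856 were higher and 1591 lower. The second probe was the more negative in 16 of 20 genes (80%), against 62.9% of all such genes. Of the 15 genes called higher, 7 had a second probe, none of which was called higher and 2 of which were called lower, those of ACADSB and PCCB. Of the 12 called lower, 6 had a second probe, and 5 of these were called lower. Of the 7 members with both probes called, 2 had opposite calls (28.6%), against 39.4% of the 1247 such genes on the arrays. The positions of the probes on their transcripts were not analysed here.

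**Figure D3:**
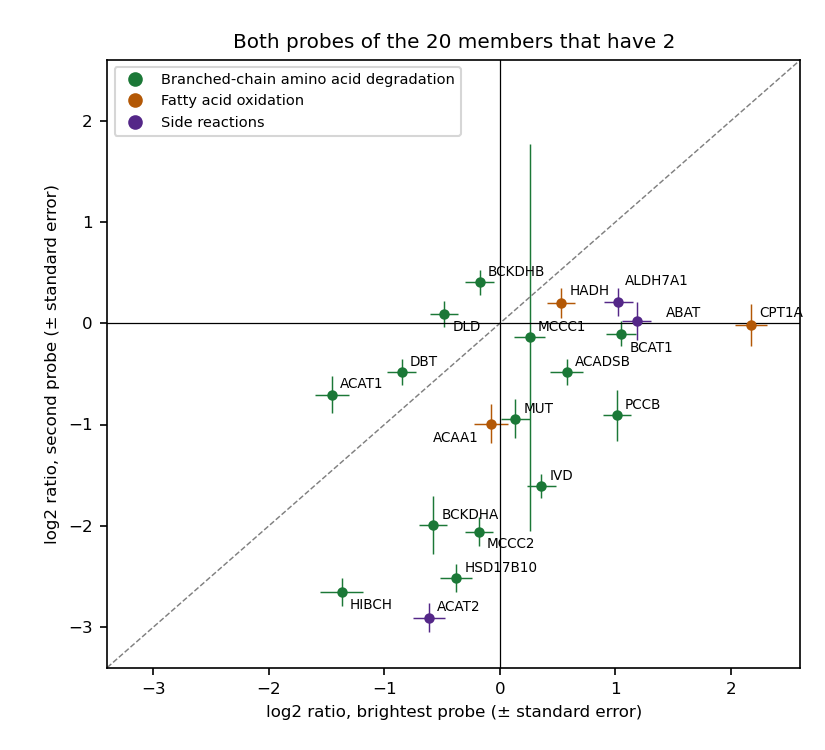
Log2 ratio of the second probe (vertical) against that of the brightest probe (horizontal) for the 20 genes with 2 probes, on the normalized scale. Bars are standard errors and the dashed line marks equality. Of the 20 genes, 16 lie below the line, and CPT1A lies at 2.17 and -0.02.

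On the deposited scale, both DLD-1-miR-21 arrays lay above both DLD-1-vector arrays in 4 of the 40 genes, against 4.86% of all genes, and below both in 34, against 67.2% of all genes. PCCA and ACADM overlapped. The median log2 ratio without normalization was -1.18 for the 40 genes and -0.71 for all genes. The members lay mostly among the well-measured genes, with 31 of them in the brightest 4 of 10 equal bins of signal. In these bins 35.5% of the members and 31.2% of all genes were called higher, 32.3% of the members and 25.6% of all genes were called lower, and the median without normalization was -1.25 for the members and -1.04 for all genes.

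**Figure D4:**
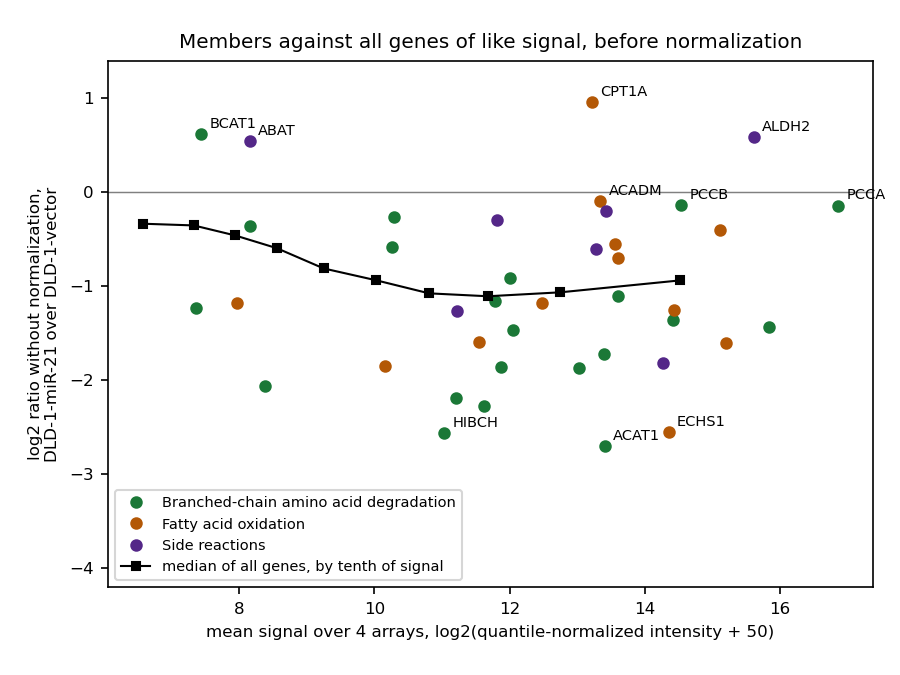
Log2 ratio without normalization between arrays (DLD-1-miR-21 cells relative to DLD-1-vector cells) against the mean normalized signal over the 4 arrays, for the brightest probe of the 40 genes. Squares joined by a line are the medians of all genes in 10 equal bins of signal. CPT1A (0.96), BCAT1 (0.62), ALDH2 (0.59) and ABAT (0.54) lie above 0, and ACAT1, HIBCH and ECHS1 lie well below the line.

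The wider pathways were described from 37 further measured genes, which regulate or serve either pathway or adjoin it. Of these 37 genes, 9 were called higher after normalization (24.3%, against 24.6% of all genes) and 11 lower (29.7%, against 22.4% of all genes), with a median of -0.0037, and the share called higher was that of the whole array. Without normalization 0 were higher and 28 lower, against 203 and 8910 of all 18365 genes. After normalization, the 9 genes around branched-chain degradation held 5 higher (55.6%) and 2 lower (22.2%), with a median of 0.53. The 28 around fatty acid oxidation held 4 higher (14.3%) and 9 lower (32.1%), with a median of -0.07. In these counts each list leaned the other way from the members of its pathway, a difference that was not tested. ACAD9, a dehydrogenase that also helps to assemble respiratory complex I, read 188 and 252 in DLD-1-miR-21 cells, against 2897 and 3300 in DLD-1-vector cells (log2 ratio -2.65, adjusted p = 0.00196). ETFA, a subunit of the flavoprotein that takes electrons from all acyl-CoA dehydrogenases, read 2386 and 2704, against 28878 and 36008 (-2.41, adjusted p = 0.002), while its partner ETFB was not called (0.04). BCKDK, the kinase that switches the BCKDH complex off, read 317 and 388, against 2818 and 2916 (-1.82, adjusted p = 0.0024), but its second probe was not called (-0.08). PPM1K, the phosphatase that switches the complex on, was also lower on its brightest probe (-0.79, adjusted p = 0.0148) and not called on its second (0.185). ACOT2, a mitochondrial thioesterase, had -1.50 (adjusted p = 0.0207).

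None of the 9 higher genes of the wider pathways was called higher without normalization. AOX1, an aldehyde oxidase, read 1137 and 1923 in DLD-1-miR-21 cells, against 1582 and 609 in DLD-1-vector cells, so the lines overlapped before normalization (log2 ratio 1.74, SE 0.47, adjusted p = 0.0402). MLYCD, which removes the malonyl-CoA that inhibits CPT1A, had 0.73, MMADHC, which handles vitamin B12 for the mutase, had 0.70, and ECI1, an isomerase for unsaturated fatty acids, had 0.65. All 3 were called after normalization and had negative ratios without it. ACACB, which makes malonyl-CoA at mitochondria, was not called on its brightest probe (0.43) and was called higher on its second (0.76, adjusted p = 0.0242; -0.11 without normalization). PPARA, a nuclear receptor that controls CPT1A, was not called on its brightest probe (0.15).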

How the data were processed

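Total RNA of the miR-21 line and its vector control was labeled with Cy5 and measured on 4 arrays, 2 for each. The authors deposited 1 table of linear intensity values for 31741 probes. Some values are below 0, so a background had been subtracted, and the array medians differ, so the arrays were not normalized to each other. The scanner, any later normalization and the test of the study were not given in the sources used here. Gene symbols are those of the platform's annotation and may be outdated. Probes with 1 symbol numbered 24740, with several 977 and with none 6024.

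Intensities were quantile-normalized, 50 was added and log2 taken, and lines were compared with lmFit and eBayes of limma 3.58.1 (R 4.3.3) on group alone (2 residual and 2.48 prior degrees of freedom). Benjamini-Hochberg adjustment covered the whole table. With 2 arrays a line, an exact permutation test of a single probe could not give a two-sided p under 0.333. The script was run on simulated data with less spread than that fitted for the real arrays, as a check of the code only. That run does not bear on the calls made here.

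The members, lists, normalization and offset were chosen with earlier results of these data known. All 40 members are named, with every array's value where a call had a log2 ratio of at least 1 in size or probes had opposite calls, and for others where a comparison rests on them. Of the wider lists, up to 4 called genes each way are named, and SLC25A20, PPM1K, ETFB, ACACB and PPARA were added after their values were seen. Normalization, offset, dim probes, variance estimation, replicate block, probe choice, thresholds and each array were varied.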

Additional observations from a re-analysis of the deposited data

How the results depend on the processing

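Of the 27 called genes, 8 kept their call under every other normalization, offset, filter, variance estimate, replicate block and probe average that could be run. These were CPT1A and ALDH2 (higher) and ACAD8, AUH, HIBCH, HIBADH, ACAT1 and ECHS1 (lower). ALDH2, ACAD8, AUH, HIBADH and ECHS1 had 1 probe each, so the probe average could not change their ratios and was no check on them. Without normalization 8910 of all genes were called lower and 203 higher, so that setting could hardly cost a lower gene its call. All 8 lost it without DLD-1-miR-21 replicate 2, CPT1A also on its second probe, and AUH also without DLD-1-miR-21 replicate 1 (limma adjusted p = 0.0512) and at the thresholds of the study's methods. Higher branched-chain genes numbered 5 of 21, against 0 without normalization, 3 on the mean of all probes, 0 of 14 on the second probe, 2 at the thresholds of the study's methods and 0 to 4 with an array left out. Lower branched-chain genes numbered 9, against 16 without normalization, 4 at those thresholds and 0 to 6 with an array left out. The branched-chain median of -0.18 moved to -0.30 with cyclic loess, -0.51 with median centring, -1.36 without normalization, -0.62 on the mean of probes, -0.81 on the 14 second probes and between -0.24 and -0.12 with an array left out. Higher fatty acid genes numbered 5 of 12, against 2 with median centring, 1 without normalization, 0 of 3 on the second probe, 2 at the study's thresholds and 0 to 4 with an array left out. Lower fatty acid genes numbered 2, against 4 with median centring, 7 without normalization, 1 with the replicate block, 1 of 3 on the second probe, 1 at the study's thresholds, 1 with ECHS1 counted elsewhere and 0 to 2 with an array left out. The fatty acid median moved to -0.33 with median centring, -1.18 without normalization and between -0.24 and 0.24 with an array left out. The cause of these moves was not tested.

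Without normalization the ratios of these genes turned negative: ACADSB -0.58, IVD -0.91, MCCC1 -0.36, ALDH6A1 -0.26, PCCA -0.14, PCCB -0.14, MCEE -1.15, MUT -1.10, CPT2 -0.55, ACADVL -0.41, ACADM -0.10, HADHB -1.18, HADH -0.69, ALDH3A2 -0.60, ALDH7A1 -0.20 and OXCT1 -0.29. On the second probe BCAT1 (-0.10), ACADSB (-0.48), IVD (-1.61), MCCC1 (-0.14), PCCB (-0.91), MUT (-0.95) and CPT1A (-0.017) turned negative. BCKDHB (0.40) and DLD (0.090) turned positive there. On the mean of probes IVD was -0.62, MUT -0.41 and BCKDHB 0.115. Samples of the lines share only a replicate number, and the deviations of like-numbered arrays correlated at -0.07. With the number as a block, 13 members were higher and 7 lower, against 15 and 12. Of all 18365 genes, 3482 were higher and 3417 lower with that block. BCAT2, BCKDHA, DLD, ACADSB, HADHA, HADH and ACAT2 were then no longer called. Over all genes, 52.3% of calls were higher, against 46.2% with cyclic loess, 2.23% without normalization and 35% on second probes. Thresholds of the study's methods (log2 ratio of at least 1 in size) left 2045 of all genes higher and 2357 lower, against 4512 and 4114. The number of arrays limits the precision, and intensities near background, such as the second probe of BCAT1, carry little information.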

Other observations

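Some genes of the wider pathways had probes called in opposite directions, as ACADSB and PCCB had, and these were picked after their values were seen. MMADHC and MMAB, which process vitamin B12 for the mutase, had log2 ratios of 0.70 and 0.61 on their brightest probes and of -1.67 (limma adjusted p = 0.00433) and -1.87 (adjusted p = 0.0107) on their second. ACOX3, a peroxisomal acyl-CoA oxidase, had 0.54 on its brightest probe and -1.74 (adjusted p = 0.00262) on its second, which read 60 and 107 in DLD-1-miR-21 cells, against 573 and 618 in DLD-1-vector cells. PPARA had 3 probes, of which 1 was called, higher at 1.33 (adjusted p = 0.00709), with 758 and 1132 in DLD-1-miR-21 cells, against 721 and 908 in DLD-1-vector cells.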
